A study of Drosophila melanogaster with 16 samples.

Results

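The germ plasm and pole cell RNAs are maternal messages of Drosophila melanogaster that are made in the ovary. Some of them are held in part at the posterior end of the egg. They were chosen by name, as the 8 genes osk, nos, pgc, gcl, vas, tud, ovo and orb. A row was found for 7 of the 8, out of 15682 genes in each table. No row stood under the gene ID that the gene name table pairs with vas, and vas, which may stand under another ID in these tables, is not analysed here. The names were matched to FlyBase IDs, and no measured value entered the rule, though earlier results of these data were known when the genes were chosen.

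Germ plasm is a patch of cytoplasm assembled by the Oskar protein. The nuclei that enter it become the pole cells, the founders of the germ line. RNAs enriched there, such as nos and pgc, are translated and kept in the pole cells, while the copies in the rest of the embryo are destroyed as the zygotic genome is switched on. A sample of whole embryos holds both pools, so RNA of the pole cells and of the rest of the embryo cannot be told apart. Neither can fewer pole cells and less RNA per pole cell.

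Total RNA of mixed-sex embryos was sequenced to ask how depletion of clamp, which encodes a DNA-binding zinc finger protein, changes gene expression. Embryos came from clamp RNAi mothers or from MTD control mothers, both mated to yw males, and were collected at 2-4 hr or at 0-2 hr from egg laying, giving 4 groups of 4 libraries. The RNAi mothers carried the TRiP.GLC01858 hairpin at attP2 opposite the P{nos-Gal4-VP16} driver, with P{COG-Gal4:VP16} opposite a y[1] sc[*] v[1] chromosome and P{Gal4-nos.NGT}40 opposite a plus chromosome. The control mothers are labelled with the same 3 drivers, with nothing written opposite them. All of these mothers thus express Gal4 in the germ line, and drivers with nos in their name are built with regulatory sequence of that gene. The hairpin is thus driven in the germ line of the mothers.

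Values were read from a comparison table for each collection, which gives for each gene a normalized read count averaged across 2 conditions, called A and B, the ratio of B to A, and an adjusted p-value. No header or label says which genotype is A or B. Clamp RNA was 38.8-fold lower in B at 2-4 hr and 66.0-fold lower at 0-2 hr in the authors' deposited table, and the conditions are called by their letters throughout. The columns used hold no value per library, so no spread within a condition can be given. The adjusted p also depends on the size of the difference and the number of genes tested, and is no measure of that spread. The labels do not say whether the libraries are separate crosses. That p can thus take in only the spread among these libraries, which may be technical. Over all genes the deposited means add up to 13946624 normalized reads for 2-4 hr and 14955921 for 0-2 hr, and the depth of each library is unknown.

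The embryos of condition B held less osk and tud but more pgc RNA than those of condition A at 2-4 hr, and somewhat more nos and tud RNA at 0-2 hr. No called difference reached 2-fold. A gene was called at an adjusted p under 0.05 over all genes of its table. Of the 7 RNAs, 3 were called at 2-4 hr in the authors' deposited table, beside 15.5% of all 14245 tested genes. Among them 1 was higher in B, beside 7.38% of all genes, and 2 were lower in B, beside 8.14%. At 0-2 hr 2 of the 7 were called there, both higher in B, and 0 lower. The shares of all 13096 tested genes were 11.2% in either direction, 5.56% higher and 5.61% lower. Genes as abundant as these were called more often. Among the 2349 genes with a mean at least that of the lowest of the 7 RNAs, 34.1% were called at 2-4 hr, and among the corresponding 783 genes 30.3% were called at 0-2 hr. By direction, 12.5% of these abundant genes were higher and 21.6% lower in B at 2-4 hr, and 8.05% were higher and 22.2% lower at 0-2 hr. Counts of 3 and 2 among 7 are thus near the share for abundant genes and are no result about these RNAs as a group. At an unadjusted p under 0.05 stood 5 of the 7 at 2-4 hr, beside 23.6% of all tested genes and 49.4% of the abundant ones. At 0-2 hr 3 of the 7 did, beside 20.2% of all and 43.8% of the abundant ones. The median log2 of B over A for the 7 was -0.16 at 2-4 hr and 0.16 at 0-2 hr, where the medians of genes with a mean of at least 20 were 0.01 and -0.01. The plot of B over A shows each RNA at both collections.

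**Figure D1:**
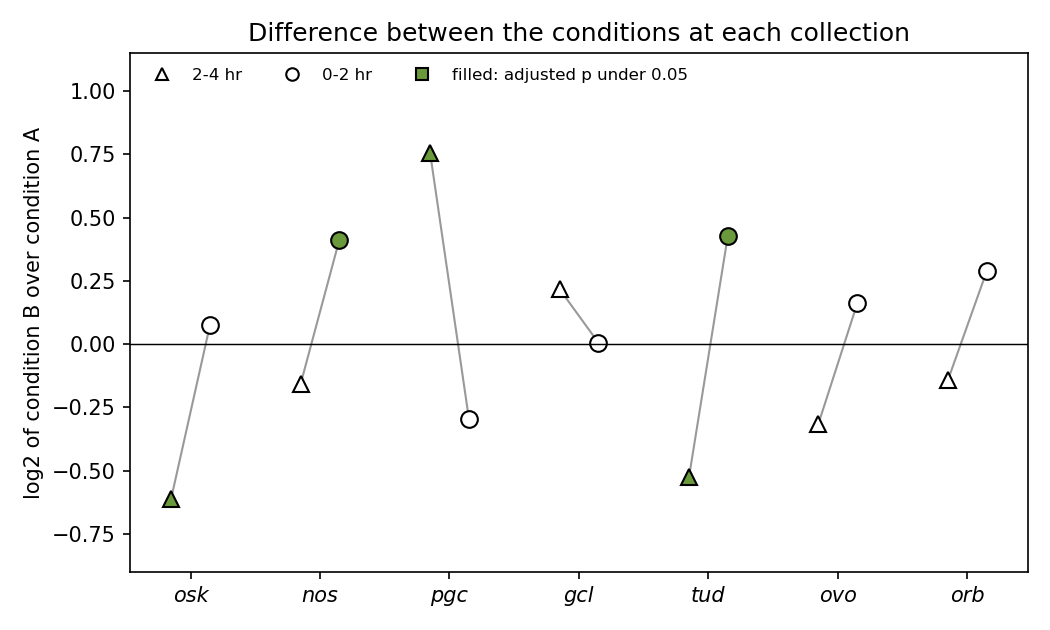
Log2 of condition B over condition A (vertical axis) for each RNA at 2-4 hr (triangles) and 0-2 hr (circles), filled where the adjusted p of the authors' deposited table was under 0.05. The lines of osk, nos, tud, ovo and orb cross 0, lying below it at 2-4 hr and above it at 0-2 hr, and pgc lies at 0.76 at 2-4 hr and -0.29 at 0-2 hr.

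All 7 were abundant RNAs, as the plot of levels shows. At 2-4 hr the authors' deposited table listed means between 1113 normalized reads for pgc and 4322 for osk. At 0-2 hr the means lay between 3787 for pgc and 14759 for osk, which ranked 116 of all 15682 genes there. Longer messages yield more reads, so levels of different genes were compared per kilobase of annotated exon. At 2-4 hr the order was osk (1506 normalized reads per kilobase), gcl (1232), pgc (919), nos (836), ovo (445), orb (246) and tud (189). At 0-2 hr it was osk (5144), pgc (3125), nos (2424), gcl (1863), ovo (1183), orb (663) and tud (481) per kilobase. Without gcl the order was the same at both collections. Exons shared with other genes were not left out of these lengths. Of the exon length of pgc, 46.9% overlaps T3dh, so the place of pgc in these orders is uncertain. Whether neighbours in these orders differ beyond their spread could not be assessed without values per library.

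**Figure D2:**
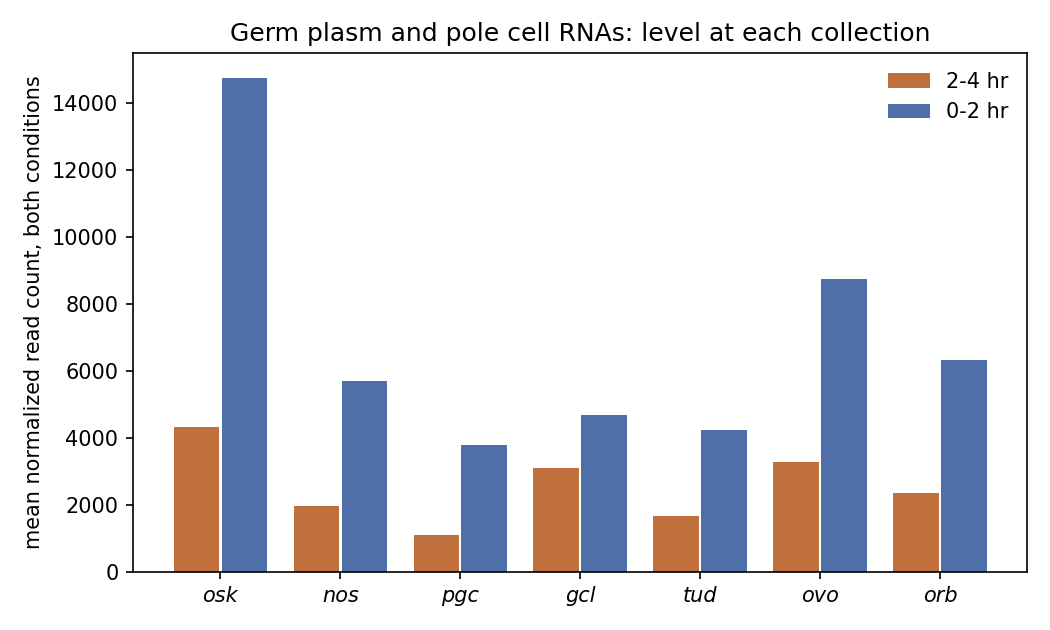
Mean normalized read count over both conditions (bars from 0, not divided by gene length) of each RNA at 2-4 hr (left bars) and 0-2 hr (right bars), with no error bars because the columns used hold no values per library. Each RNA is lower at 2-4 hr, and gcl has the smallest relative drop, with 3091 at 2-4 hr and 4675 at 0-2 hr.

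Among the genes that build the germ plasm, osk on chromosome arm 3R comes first, since its protein nucleates it and directs pole cells to form wherever it is placed in the egg. In the authors' deposited table osk RNA, with a mean of 4322 normalized reads at 2-4 hr, was 1.53-fold lower in B (log2 -0.61, adjusted p 0.00413). Its mean at 0-2 hr was 14759 there, and its log2 of 0.07 was not called (adjusted p 0.885). The called difference in osk was thus at the later collection, when its level had dropped, and the difference in the early load was not detectable. Of the exon length of osk, 78.5% is shared with lncRNA:osk on the same strand in the annotation used for lengths, so coding and noncoding osk transcripts are not separated by these values.

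Tudor, the product of tud on 2R, is a large scaffold of the polar granules that binds methylated arginines of other granule proteins. Its RNA was called at both collections, in opposite directions. With a mean of 1668 normalized reads at 2-4 hr it was 1.44-fold lower in B (log2 -0.53, adjusted p 8.43e-06) in the authors' deposited table. With a mean of 4246 at 0-2 hr it was 1.34-fold higher in B there (log2 0.43, adjusted p 0.0166). Of all genes, 628 were called at both collections. Of these, 45 were lower in B at 2-4 hr and higher at 0-2 hr, as tud was, and 41 were higher in B at 2-4 hr and lower at 0-2 hr.

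The next genes act in or on the pole cells. Nanos, from nos on 3R, is a translational repressor that patterns the abdomen with Pumilio and protects the pole cells. The authors' deposited table listed nos at 2-4 hr with a mean of 1964 normalized reads and a log2 of -0.16 that was not called (adjusted p 0.895). For 0-2 hr it listed nos with a mean of 5693 and a 1.33-fold higher level in B (log2 0.41, adjusted p 0.0262). The exons of nos overlap those of CG11779 on the opposite strand over 11.5% of their length and those of Nsun5 over 4.43%. The Gal4 drivers named for nos may carry nos sequence, and reads from them cannot be told apart from those of the gene itself in these tables. Whether strand was used in counting is not stated in the sources. Neither neighbour was called at 0-2 hr, with log2 values of 0.02 for CG11779 and 0.07 for Nsun5 in the authors' deposited table.

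The small protein of pgc, on 2R, holds back transcription in newly formed pole cells by blocking a kinase of RNA polymerase II. Its RNA differed in the direction opposite to osk and tud. With a mean of 1113 normalized reads at 2-4 hr, pgc was 1.69-fold higher in B (log2 0.76, adjusted p 6.09e-05) in the authors' deposited table. With a mean of 3787 at 0-2 hr, its log2 of -0.29 was not called there (adjusted p 0.249). Of the exon length of pgc, 46.9% overlaps exons of T3dh on the opposite strand, so reads of the 2 genes may not be separable. T3dh itself had a low mean, 9.31 normalized reads at 2-4 hr and 16.0 at 0-2 hr in the authors' deposited table.

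The gcl gene, on 2R, encodes a nuclear envelope protein and ubiquitin ligase adaptor that lets pole cells form. The authors' deposited table listed gcl with a mean of 3091 normalized reads and a log2 of 0.22 (adjusted p 0.102) at 2-4 hr. For 0-2 hr it listed gcl with a mean of 4675 and a log2 of 0.01 (adjusted p 1). Neither difference was called, and no interval is given for either, since the columns used hold no values per library.

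The last pair encodes regulators of the female germ line. Ovo, from ovo on the X chromosome, is a zinc finger transcription factor. Its RNA had a mean of 3294 normalized reads at 2-4 hr with a log2 of -0.31 (adjusted p 0.158), and a mean of 8754 at 0-2 hr with a log2 of 0.16 (adjusted p 0.543), in the authors' deposited table. Orb, from orb on 3R, binds messages such as osk and promotes their translation in the oocyte. Its RNA had a mean of 2351 normalized reads at 2-4 hr with a log2 of -0.14 (adjusted p 0.826), and a mean of 6332 at 0-2 hr with a log2 of 0.29 (adjusted p 0.151), in the authors' deposited table. Neither was called at either collection. In all, 4 of the 7 RNAs were called at least once, and 3 were not, gcl, ovo and orb.

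Each of the 7 RNAs was lower at 2-4 hr than at 0-2 hr, by the ratio of the deposited means over both conditions. The tables were normalized separately and no test between collections was made, so these ratios are descriptions. The level at 2-4 hr was 29.3% of that at 0-2 hr for osk, 29.4% for pgc, 34.5% for nos, 37.1% for orb, 37.6% for ovo, 39.3% for tud and 66.1% for gcl. Thus 6 of the 7 were at least 2-fold lower, all but gcl, where 22.3% of the 6940 genes with a mean of at least 20 in both tables were. Of the 783 genes at least as abundant as pgc at 0-2 hr, 14.0% were at least 2-fold lower at 2-4 hr, and their median gene stood at 100.2% of its earlier level. The germ plasm RNAs other than gcl were therefore among the RNAs with the larger losses, between 9.12% (osk) and 15.6% (tud) of the 6940 genes having lost more.

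The size of the loss was set side by side between the conditions without a test. The level at 2-4 hr over that at 0-2 hr in B, divided by the same ratio in A, equals the fold of B over A at 2-4 hr divided by that at 0-2 hr, in which the scaling between the tables cancels. On the log2 scale this difference was -0.95 for tud, -0.69 for osk, -0.57 for nos, -0.48 for ovo and -0.43 for orb. It was 0.21 for gcl and 1.05 for pgc. Loss here means the fold drop, the level at 0-2 hr divided by that at 2-4 hr, and not the share of RNA lost. The fold drop of tud was thus 1.94-fold larger in B, that of osk 1.61-fold, of nos 1.49-fold, of ovo 1.39-fold and of orb 1.35-fold. The fold drop of pgc was 2.07-fold smaller in B and that of gcl 1.16-fold smaller. By these values the RNAs fell into 5 with a larger and 2 with a smaller loss in B, with a median of -0.48. Annotated exon lengths were 1212 bp for pgc, 2349 for nos, 2509 for gcl and 2869 for osk. They were 7400 bp for ovo, 8830 for tud and 9551 for orb. The shortest, pgc, had the highest difference, but the longest, orb, did not have the lowest. Whether this difference follows transcript length was not tested, among these RNAs or over all genes.

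Whether the loss differed between the conditions was not tested here, and the deposited p-values bear on each collection alone. Over the 6939 genes that reached a mean of 20 in both tables and had a finite value, the median was 0.03, the 5th percentile -0.77 and the 95th percentile 0.78, and 47.5% of them were negative. Values below that of tud were held by 2.91% of these genes, and values below that of pgc by 97.9%. Those 2 RNAs lay outside the range between these percentiles, and the other 5 lay inside it. The RNA of pgc and that of osk had lost nearly the same share when both conditions were averaged, and they lay on opposite sides of 0 in the difference between conditions, as the plot of change over time shows.

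**Figure D3:**
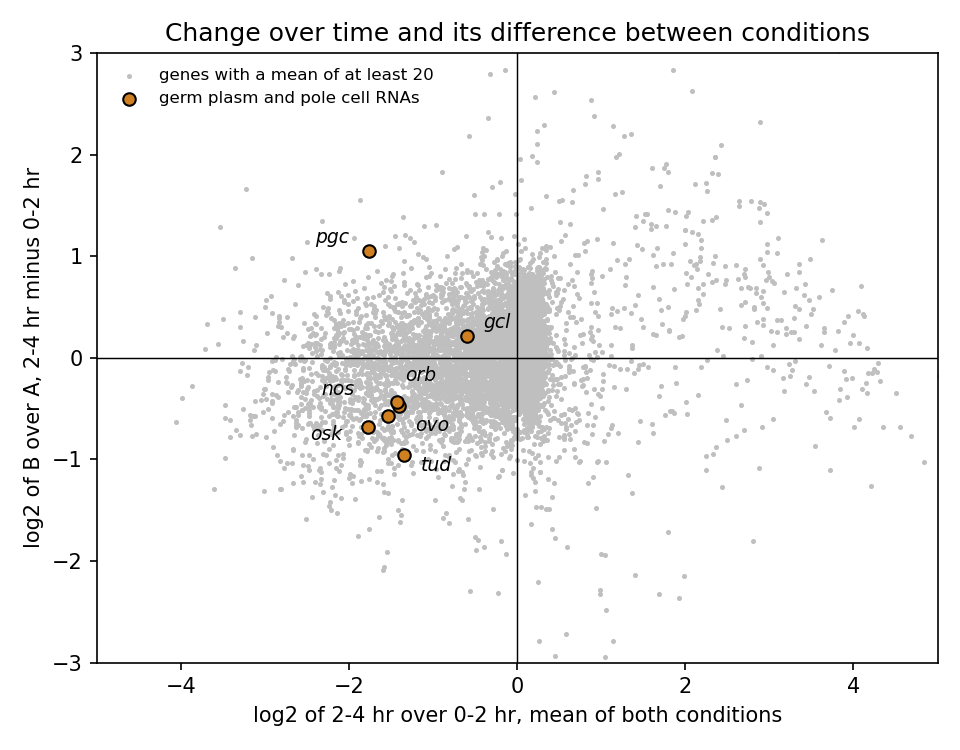
Log2 of B over A at 2-4 hr minus that at 0-2 hr (vertical) against log2 of the level at 2-4 hr over that at 0-2 hr, mean of both conditions (horizontal), for the 7 RNAs (orange) and for 6939 genes with a mean of at least 20 in both tables (grey, 17 of them outside the axes). A point below 0 had a lower level at 2-4 hr relative to 0-2 hr in B than in A, which is a larger loss for the 7 RNAs, all left of 0, and tud at -0.95 is the lowest and pgc at 1.05 the highest of the 7.

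For the 4 called RNAs, the genes with the most similar pattern were found by Euclidean distance over 3 log2 contrasts, B over A at 2-4 hr, B over A at 0-2 hr, and 2-4 over 0-2 hr of the mean over both conditions, among 6939 genes. The nearest to osk were CG7556 (distance 0.078) and CG30183 (0.093). Those nearest to nos were l(2)gd1 and Usp8, at distances of 0.105 and 0.106, and those nearest to tud were CG4554 (0.096) and Pus7 (0.115). The pattern of pgc had no match as close, its nearest genes being Tim8 at 0.27 and GIIIspla2 at 0.31. These genes were picked by the same values, so their likeness is no separate result. In the authors' deposited table CG4554 had log2 values of -0.56 at 2-4 hr (adjusted p 0.000666) and 0.34 at 0-2 hr (adjusted p 0.0120). Pus7 had -0.52 at 2-4 hr (adjusted p 0.0246) and 0.31 at 0-2 hr, which was not called (adjusted p 0.121).

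Other genes of the pathway were read from lists, whose values are drawn in the plot of related gene lists. No list was tested as a group. Factors that carry osk RNA to the posterior pole or hold back its translation were mostly uncalled. At 2-4 hr 4 of 19 tested were lower in B and 0 higher, with a median log2 of -0.14. Of all tested genes 8.14% were lower and 7.38% higher there. Of the abundant ones 21.6% were lower, near the share of this list. A further gene of the list, cup, was listed at 0 in both tables. The 4 were BicC, an RNA-binding repressor (2.07-fold lower, log2 -1.05), spir, an actin nucleator (log2 -0.45), tral, a translational repressor (log2 -0.34), and par-1, a polarity kinase (log2 -0.30), in the authors' deposited table. At 0-2 hr 2 of 19 were lower and 0 higher, beside 5.61% and 5.56% of all tested genes, with a median of -0.09. Of the abundant ones 22.2% were lower and 8.05% higher there. The 2 lower were Tm1, a tropomyosin gene (log2 -0.34), and sqd, an RNA-binding protein gene (log2 -0.25), in the authors' deposited table.

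**Figure D4:**
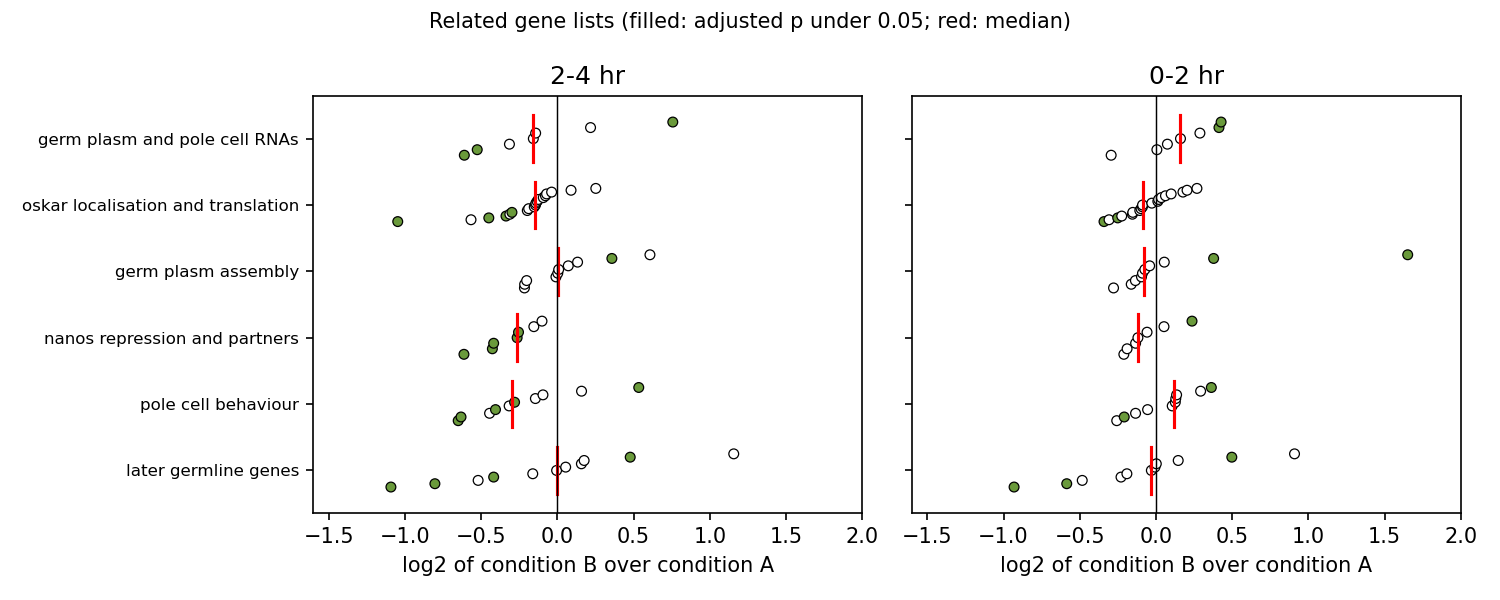
Log2 of condition B over condition A (horizontal axis) for each tested gene of 6 lists at 2-4 hr (left) and 0-2 hr (right), filled where the adjusted p was under 0.05, with red lines at the list medians. The medians lie between -0.30 and 0.01 at 2-4 hr and between -0.12 and 0.16 at 0-2 hr.

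Among 10 genes for proteins of the germ plasm, 1 was higher in B and 0 lower at 2-4 hr, beside 7.38% and 8.14% of all tested genes. At 0-2 hr 2 were higher and 0 lower, beside 5.56% and 5.61%. The one at 2-4 hr was Rab11, a membrane traffic GTPase (log2 0.36, adjusted p 0.000987), in the authors' deposited table. Of those at 0-2 hr, vls, whose protein binds Tudor in the germ plasm, had a mean of 227 normalized reads and was 3.14-fold higher in B (log2 1.65, adjusted p 6.06e-14) in the authors' deposited table. The other was tapas, a Tudor-domain gene (log2 0.38, adjusted p 0.000564). At 2-4 hr vls had a mean of 149 and a log2 of 0.61 that was not called (adjusted p 0.0574) in the authors' deposited table. Of the abundant genes 12.5% were higher and 21.6% lower at 2-4 hr, and 8.05% and 22.2% at 0-2 hr. The list medians were 0.01 at 2-4 hr and -0.08 at 0-2 hr.

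Of 7 tested genes on the list of nos repressors, partners of Nanos and their target hb, 5 were lower in B at 2-4 hr and 0 higher, with a median log2 of -0.26. The shares lower in B there were 8.14% of all tested genes and 21.6% of the abundant ones, and the list has no test of its own. The authors' deposited table listed mei-P26 with a log2 of -0.61, pum with -0.43, smg with -0.42 and glo with -0.26 at 2-4 hr, all called. The fifth was brat, a partner of Nanos and Pumilio (log2 -0.26, adjusted p 0.0448), in the authors' deposited table. Pumilio acts with Nanos, and Smaug, the product of smg, represses nos and destabilises many maternal RNAs. At 0-2 hr 1 of 7 was called, beside 11.2% of all tested genes and 30.3% of the abundant ones. This was again brat, now higher in B (log2 0.24, adjusted p 0.00610) in the authors' deposited table, so that brat was called in opposite directions as tud was. There smg had a log2 of -0.21 (adjusted p 0.0529) at 0-2 hr.

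Of 10 genes for pole cell behaviour or RNAs kept in pole cells, 4 were lower and 1 higher in B at 2-4 hr, with a median log2 of -0.30. The shares lower there were 8.14% of all tested genes and 21.6% of the abundant ones, and the shares higher 7.38% and 12.5%. The lower genes of the list included wun2 (log2 -0.65), a lipid phosphatase needed for pole cell survival, shg, the E-cadherin gene (log2 -0.63), and zpg, a germ line gap junction gene (log2 -0.41), in the authors' deposited table. The related phosphatase gene wun was higher there (log2 0.53). Hsp83, whose RNA is cleared from the body and kept in pole cells, was not called, with log2 values of -0.14 at 2-4 hr and 0.13 at 0-2 hr in the authors' deposited table. At 0-2 hr 1 of 10 was higher, wun (log2 0.36), beside 5.56% of all tested genes and 8.05% of the abundant ones. A further 1 was lower, CycB (log2 -0.21), beside 5.61% and 22.2%, and the list median was 0.12. Over time 3 of these 10 were at least 2-fold lower at 2-4 hr, Hsp83 among them.

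Among 11 later germ line genes, 3 were lower and 1 higher in B at 2-4 hr, beside 8.14% and 7.38% of all tested genes. There bam, a switch gene of germ cell differentiation, was 2.13-fold lower (log2 -1.09, adjusted p 5.75e-09), and at 0-2 hr it was 1.91-fold lower (log2 -0.93, adjusted p 0.00382), in the authors' deposited table. The piRNA pathway gene mael was lower at both collections (log2 -0.42 at 2-4 hr and -0.59 at 0-2 hr), and Sxl was lower at 2-4 hr (log2 -0.80), in the authors' deposited table. The thioredoxin gene dhd was higher at 2-4 hr (log2 0.48) and spn-E, a piRNA pathway helicase gene, at 0-2 hr (log2 0.50), in the authors' deposited table. At 0-2 hr 2 of the 11 were lower and 1 higher, beside 5.61% and 5.56% of all tested genes. Of the abundant genes 21.6% were lower and 12.5% higher at 2-4 hr, and 22.2% and 8.05% at 0-2 hr. The list medians were -0.01 at 2-4 hr and -0.03 at 0-2 hr.

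The germ plasm RNAs had a lower median level at 2-4 hr, relative to 0-2 hr, than RNAs of maternally acting genes of body axis formation. The median was 37.1% over the 7 RNAs and 89.7% over 17 axis genes with a mean of at least 20 in both tables, of which 2 were at least 2-fold lower. By the same floor the median was 57.3% for the list of pole cell behaviour and 73.1% for that of osk localisation and translation. It was 83.3% for nos repressors and partners, 91.0% for later germ line genes and 96.5% for germ plasm proteins. Single RNAs of these lists stood lower than any of the 7, among them dhd (7.75%), BicC (17.0%) and Hsp83 (26.3%). These are descriptions with no test. Of 20 axis genes, 2 were lower and 1 higher in B at each collection. Of all tested genes 8.14% were lower and 7.38% higher at 2-4 hr, and 5.61% and 5.56% at 0-2 hr. Of the abundant ones 21.6% were lower and 12.5% higher at 2-4 hr, and 22.2% and 8.05% at 0-2 hr. The lower axis genes at both were Tl and cact, and the higher one ndl (log2 2.86 at 2-4 hr and 2.54 at 0-2 hr), in the authors' deposited table. The mean of ndl was low there, 55.3 normalized reads at 2-4 hr and 56.6 at 0-2 hr.

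Markers of other cells and stages were also compared between the conditions. The 15 late-embryo muscle genes had negative log2 values in 15 at 2-4 hr (median -4.87) and in 14 at 0-2 hr (median -2.85), but 0 were called at either collection by the deposited p-values, for which DESeq is the tool named in the processing notes, and 0 had an unadjusted p under 0.05. Their summed mean was 2312 normalized reads at 2-4 hr and 1691 at 0-2 hr. The 13 genes of late epidermis, gut and trachea had a median log2 of -3.84 (summed mean 668) at 2-4 hr and -3.37 (382) at 0-2 hr. These medians leave out 1 of them, Cpr65Ea, which was listed at 0 in B at each collection and had no finite log2. Of the 13, 0 were called at 2-4 hr, where 1 had an unadjusted p under 0.05, and 1 was lower in B at 0-2 hr, obst-B. For 11 neuron genes the median was -1.50 (summed mean 2706) at 2-4 hr, with nrv2 and elav lower in B, and -2.06 (1612) at 0-2 hr, with Syx1A higher. Most of these sums came from Syx1A, with means of 1632 at 2-4 hr and 1301 at 0-2 hr. The log2 was negative for 10 of the 11 at 2-4 hr and for 9 at 0-2 hr. For 15 eggshell and follicle cell genes the median was 0.22 (summed mean 63.2) at 2-4 hr, with Cp7Fc higher. That median leaves out Vm32E, Cp19 and Cp16, which had no finite log2 there. At 0-2 hr the median was -0.47 (570.0), with 0 called and 2 at an unadjusted p under 0.05. For 17 early zygotic genes the median was -0.48 (summed mean 25650) at 2-4 hr, with 3 higher and 6 lower, and -0.33 (4626) at 0-2 hr, with kuk lower. The shares of all tested genes were 7.38% higher and 8.14% lower at 2-4 hr, and 5.56% and 5.61% at 0-2 hr. No gene of these marker lists had a mean of 0. The part of any such difference in the values of the germ plasm RNAs was not tested.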

How the data were processed

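RNA-seq values were read from the tables the authors deposited, 1 per collection. Per the file headers each gene has a signal, the normalized read count averaged across conditions. The deposited tables also give the ratio (fold) of B to A, the log2 of that ratio, and p-values before and after adjustment. TopHat2 2.0.13, HTSeq 0.5.4p3 and DESeq, and the build dm3, appear in the submitters' processing notes with no role for any. Adjusting the deposited p-values by Benjamini-Hochberg gave back the adjusted ones. The 4 columns of condition means were left out of every value here, because their groups are not labelled, so levels and losses per condition are not given. An earlier calculation did use those columns and its outcome was seen; the measures over both conditions, and their alternatives, were chosen after that.

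A gene was called at an adjusted p under 0.05. No test was added: ratios over time and differences of log2 folds were computed in Python 3.11.15 with pandas 2.3.3, and the adjustment and the fold count were tested on simulated data. Gene names came from a gene name table. Arms, exon lengths and overlaps came from the BDGP6 annotation, which is not the authors' build, so no coordinates are given.

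The members and lists were chosen with earlier results of these data known. The genes named are the members, Clamp, up to 4 called genes of a list and collection with the smallest adjusted p, and the 2 nearest in pattern to each called member. The pattern measure used the mean over both conditions in place of condition A. Hsp83, brat at 2-4 hr, and vls and smg where not called, were named after their values were seen, and overlapping genes for their position. Of the listed genes, rump, wupA, para, VAChT, tyn and btsz had no row under their ID.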

Additional observations from a re-analysis of the deposited data

How the results depend on the processing

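No paired analysis was possible because the columns used hold no values per library, and leaving out replicates and scaling by summed condition means were not run for the same reason. The losses planned per condition were replaced by that of the mean over both conditions, with alternatives chosen after seeing the data. At an adjusted p under 0.01, 0 of the 7 RNAs were higher in B at 0-2 hr, where nos and tud no longer passed. The deposited p-values, for which the notes name DESeq, gave 5 RNAs an unadjusted p under 0.05 at 2-4 hr, beside 23.6% of all genes, and 3 at 0-2 hr, beside 20.2%. On calls of at least 2-fold, 0 were higher at 0-2 hr, 0 higher at 2-4 hr and 0 lower at 2-4 hr. No RNA was 4-fold lower at 2-4 hr than at 0-2 hr, a count of 0, against 6 at 2-fold. Taking an adjusted p under 0.1, a mean of at least 20 with renewed adjustment, or centring on the median gene moved none of the 7 RNAs across the threshold and turned no direction. Scaling by the summed means raised all log2 ratios over time by 0.10 and centring by 0.17, and 6 RNAs stayed at least 2-fold lower. The depth per library is unknown, so no detection limit is given.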
